A study of Arabidopsis thaliana with 12 samples.

Results

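The nia1nia2 and noa1-2 mutants of Arabidopsis thaliana were both used as plants low in nitric oxide (NO) and are mutated in different genes, and their transcriptomes are compared here directly with each other. The nia1nia2 seedlings carry mutations in both nitrate reductase genes, NIA1 and NIA2. The noa1-2 seedlings carry a mutation in NITRIC OXIDE ASSOCIATED1. The whole series holds 12 Affymetrix ATH1 arrays, 3 for each of Col-0, nia1nia2, noa1-2 and nia1nia2noa1-2, and the comparison uses 6 of them, replicates 2, 3 and 4 of nia1nia2 and replicates 1, 2 and 3 of noa1-2. Each array holds RNA of whole seedlings that the labels call biological replicates, 15 days old, past the transition to flowering, grown on MS medium with sucrose in days of 16 h light with 8 h dark, and collected 5 h after dawn. Of 13355 genes with a probe set of their own, 6861 averaged 6 or more on the log2 intensity scale in nia1nia2 or in noa1-2 and were compared.

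Nitrate reductase turns nitrate into nitrite, the first step of nitrate assimilation, and can also reduce nitrite to NO. NOA1 was first described as a factor needed for NO accumulation and is a GTPase of the plastid that is needed for normal plastid ribosomes. In plants NO acts in part through the Cys branch of the N-end rule pathway, in which NO and oxygen are both required for the breakdown of group VII ERF transcription factors. A direct comparison of the mutants shows which transcripts differ between a loss of nitrate reduction and a loss of a plastid GTPase. NIA1, NIA2 and NOA1 are not among the probe sets named by the annotation used here, so the genotypes were not checked by their own transcripts. In whole seedlings, fewer cells of a type and less RNA per cell cannot be told apart.

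Over the genes compared, the median SD among 3 arrays was 0.257 log2 units in nia1nia2, against 0.107 in noa1-2, 0.116 in Col-0 and 0.115 in nia1nia2noa1-2. The SD was larger in nia1nia2 than in noa1-2 for 83.8% of genes. Of 26 root markers, 7 could be named. Their summed linear intensity, in which bright genes weigh most, was 6560 to 9012 in nia1nia2 and 6864 to 7921 in noa1-2, ranges that overlap. Gene by gene, 4 of the 5 tested had a higher mean in nia1nia2, with a median difference of 0.46 log2 units. Their median against Col-0 was -0.24 in nia1nia2 and -0.70 in noa1-2. Of the 5 root markers tested, 2 were higher in nia1nia2, the peroxidase genes AT1G30870 (0.73 ± 0.18) and AT5G66390 (0.68 ± 0.22), and none passed without noa1-2 replicate 1 or 2. The 9 nuclear photosynthesis genes that could be named, markers of green tissue, summed to 56403 to 72849 in nia1nia2 and 77514 to 79284 in noa1-2, without overlap, and the part of either marker list in other differences was not tested. INO, the only floral organ marker named of 14, stayed under the floor of 6 in both mutants.

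The transcriptomes of the mutants differed widely. At a Benjamini-Hochberg adjusted p under 0.05 in limma, 892 genes were higher in nia1nia2 (13.0% of the genes tested) and 1267 were higher in noa1-2 (18.5%), together 31.5%. Of these, 390 (5.68%) and 387 (5.64%) differed at least 2-fold. The 13.0% and 18.5% are the shares to set beside the list counts that follow. The larger differences lay mostly on the nia1nia2 side, with 104 genes at least 2 log2 units higher in nia1nia2 and 29 at least 2 log2 units higher in noa1-2. Past 3 log2 units, 28 genes were higher in nia1nia2 and 4 in noa1-2. The 3 arrays of one mutant lay wholly apart from the 3 of the other for 3306 genes (48.2%), 1362 higher in nia1nia2 (19.9%) and 1944 higher in noa1-2 (28.3%), and for 2146 of the 2159 called genes. The median difference of all genes, nia1nia2 minus noa1-2, was -0.08. The counts moved when an array of either mutant was left out. The test pools the spread of both mutants, so leaving out a noa1-2 array gives the wider spread of nia1nia2 more weight. The part of this in the counts that follow was not tested. Without noa1-2 replicates 1, 2 and 3 in turn, 529, 509 and 631 genes were higher in nia1nia2 and 644, 655 and 785 in noa1-2. Without nia1nia2 replicates 2, 3 and 4 in turn, 744, 991 and 1049 genes were higher in nia1nia2 and 933, 1414 and 1759 in noa1-2.

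**Figure D1:**
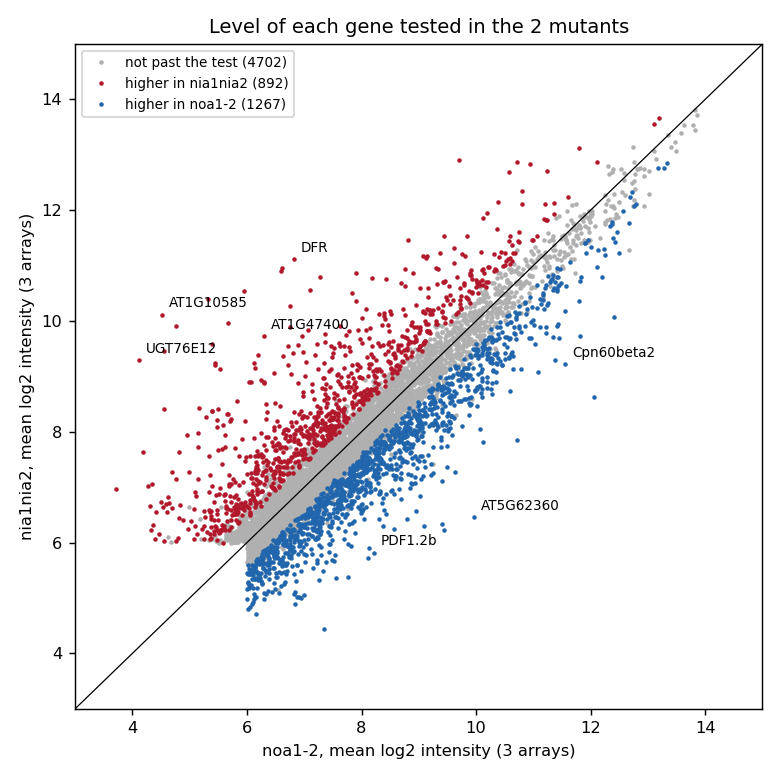
Mean log2 intensity of each of 6861 genes in noa1-2 (horizontal axis) and nia1nia2 (vertical axis), 3 arrays each, with the line of equal level. Red points are the 892 genes higher in nia1nia2, blue points the 1267 higher in noa1-2, grey points did not pass the test, and the red cloud reaches farther from the line than the blue.

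The nia1nia2 arrays were not equally far from noa1-2. Among the 390 genes higher in nia1nia2 by at least 2-fold, replicate 3 was the lowest nia1nia2 array for 267 genes (68.5%) and replicate 4 the highest for 241 (61.8%). Among the 387 genes higher in noa1-2 by at least 2-fold, replicate 3 was the highest nia1nia2 array for 276 (71.3%). Replicate 3 of nia1nia2 therefore lay nearest to noa1-2 in both directions for most of these genes.

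The 20 genes with the largest excess in nia1nia2 differed by 3.44 to 5.60 log2 units. In what follows, nia1nia2 values are given in the order of replicates 2, 3 and 4 and noa1-2 values in the order of replicates 1, 2 and 3, all as log2 intensity, and each difference is nia1nia2 minus noa1-2 with its SE (n = 3 arrays per genotype) and limma's adjusted p. AT1G10585, a basic helix-loop-helix factor, read 10.22, 8.94 and 11.19 in nia1nia2 and 4.66, 4.67 and 4.21 in noa1-2, a difference of 5.60 ± 0.47 (adjusted p = 0.000186). The glycosyltransferase gene UGT76E12 read 9.50, 8.45 and 9.95 against 4.11, 4.23 and 3.98, a difference of 5.19 ± 0.33 (adjusted p = 7.01e-05). AT3G25790, which encodes a MYB-like repressor of the HHO family known to respond to nitrate, read 10.10, 9.26 and 10.38 against 4.88, 4.57 and 4.86, a difference of 5.14 ± 0.27 (adjusted p = 4.95e-05). These genes were high on every nia1nia2 array and near the bottom of the scale on every noa1-2 array, where the level lay under the floor of 6, so the size of these differences is less certain than their direction. Their Col-0 means of 4.72, 4.30 and 5.07 were close to noa1-2, and their nia1nia2noa1-2 means were 9.22, 8.21 and 9.73.

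In most others of the 20 it was also nia1nia2 that stood away from Col-0. AT2G18480, a member of the polyol and monosaccharide transporter family, read 9.38, 8.89 and 10.09 against 4.49, 4.63 and 4.53 (difference 4.90 ± 0.27, adjusted p = 4.95e-05). AT3G04000, a short-chain dehydrogenase gene, read 10.95, 10.57 and 11.18 against 6.50, 6.79 and 6.49 (difference 4.31 ± 0.19, adjusted p = 3.34e-05), so here both mutants were above the floor. The remainder included AT2G22200, an AP2/ERF factor (3.76 ± 0.22), AT5G39580, a class III peroxidase (3.60 ± 0.41), AT5G52810, which acts in the synthesis of the defence compound pipecolic acid (3.51 ± 0.20), and AT1G43910, an AAA-type ATPase (4.29 ± 0.42). AT1G73120 (5.07), AT2G41380 (4.60), AT5G01740 (4.34), AT3G16330 (4.20), AT5G39520 (3.84), AT1G21520 (3.80), AT1G80130 (3.46) and AT1G05550 (3.44) completed this group with DFR, AT5G03350 and AT1G47400, which are described below. For 2 of the 20, AT5G03350 and AT1G47400, the mutant farther from Col-0 was noa1-2. AT5G03350, a legume lectin gene of salicylic acid responses, stood at 10.47 in Col-0, at 11.10, 11.02 and 10.28 in nia1nia2 and at 7.49, 6.86 and 7.49 in noa1-2, so its difference of 3.52 ± 0.26 (adjusted p = 0.000128) went with a fall of noa1-2 below Col-0 (-3.19 ± 0.26, adjusted p = 3.52e-05) and a nia1nia2 value of 0.33 ± 0.32 above Col-0 that did not pass the test (adjusted p = 0.471).

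**Figure D2:**
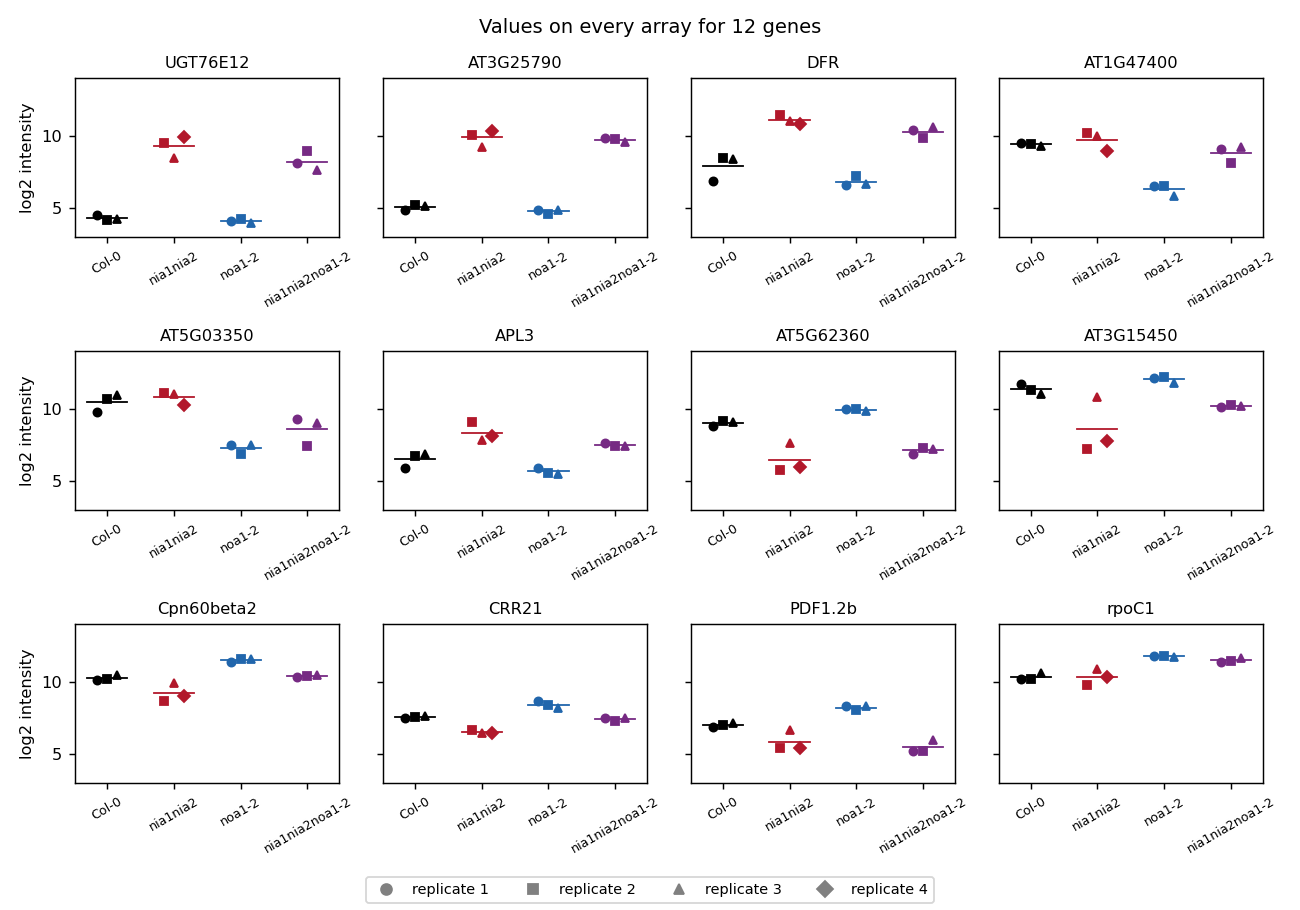
Log2 intensity of 12 genes on each of the 12 arrays, by genotype, with a symbol for each replicate number and a bar at the mean of 3 arrays. In every panel the nia1nia2 symbols lie wholly above or wholly below the noa1-2 symbols. For AT1G47400, AT5G03350 and rpoC1 it is noa1-2 that stands away from Col-0, and in some other panels, such as Cpn60beta2, both mutants do.

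The 20 genes with the largest excess in noa1-2 differed by 2.19 to 3.50 log2 units. AT5G62360, of the pectin methylesterase and invertase inhibitor family, read 5.77, 7.61 and 6.0 in nia1nia2 and 10.01, 9.97 and 9.89 in noa1-2, a difference of -3.50 ± 0.41 (adjusted p = 0.000724). Its nia1nia2 mean lay below the Col-0 mean of 9.02 (-2.56 ± 0.41, adjusted p = 0.00294) and its noa1-2 mean above it (0.94 ± 0.10, adjusted p = 0.000149). Among the others were 3 glutaredoxin-like genes of the plant-specific CC type, AT5G18600 (-3.08 ± 0.41, adjusted p = 0.00111), AT4G15690 (-2.91 ± 0.22, adjusted p = 0.000128) and AT4G15680 (-2.38 ± 0.14, adjusted p = 4.95e-05). AT4G15680 read 5.72, 5.69 and 5.77 against 8.15, 8.26 and 7.92. AT4G15690 and AT4G15680 are neighbours of similar sequence, so probes may not fully separate them.

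Some of this group varied strongly among the nia1nia2 arrays. AT3G15450, an aluminium-induced protein gene with YGL and LRDR motifs, read 7.22, 10.85 and 7.80 in nia1nia2 and 12.18, 12.22 and 11.78 in noa1-2 (difference -3.44 ± 0.78, adjusted p = 0.0117). AT2G20670 read 4.83, 8.29 and 5.58 against 9.51, 9.75 and 9.06 (difference -3.21 ± 0.74, adjusted p = 0.0122). In both, replicate 3 of nia1nia2 lay near the noa1-2 arrays and replicates 2 and 4 far below them. Less variable members were AT2G05540, a glycine-rich protein gene (-2.30 ± 0.21), AT1G52100, a jacalin lectin gene (-2.35 ± 0.24), AT3G22150, a pentatricopeptide repeat protein gene (-2.39 ± 0.27), and AT2G25200 (-2.21 ± 0.29). AT5G19120 (-2.86), AT3G15630 (-2.79), Fes1B, a cofactor of HSP70 chaperones (-2.37), AT5G24490, annotated as a plastid ribosomal protein (-2.33), AT1G07050, a CCT domain protein (-2.32), AT3G09580 (-2.29) and AT5G50450 (-2.19) completed the group with Cpn60beta2, PDF1.2b and ORA47.

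Genes of the anthocyanin pathway were higher in nia1nia2. All 4 tested members of the late anthocyanin list (19 listed, 5 named) were higher in nia1nia2, with a median difference of 2.71 against -0.08 over all genes. DFR, which reduces dihydroflavonols on the way to anthocyanins, read 11.49, 11.03 and 10.82 against 6.57, 7.24 and 6.63 (4.30 ± 0.23, adjusted p = 4.95e-05). It lay above the Col-0 mean of 7.90 in nia1nia2 (3.21 ± 0.39, adjusted p = 0.001) and below it in noa1-2 (-1.09 ± 0.35, adjusted p = 0.0448). Its Col-0 arrays read 6.86, 8.45 and 8.39 and overlapped those of noa1-2. The anthocyanin-modifying transferase genes UF3GT (2.82 ± 0.22), AT4G14090 (2.61 ± 0.20) and AT5MAT (1.63 ± 0.21) had the same order of mutants, without overlap of arrays. Of 3 tested members of a list of phenylpropanoid and flavonoid genes, 2 were higher in nia1nia2. They were CHIL, which assists chalcone synthase (1.73 ± 0.22), and the flavonoid glucosyltransferase gene UGT78D2 (1.26 ± 0.14). The flavonol rhamnosyltransferase gene UGT78D1 had a difference of -0.17 that did not pass the test. The 4 and 2 calls of these lists were kept when any single array was left out.

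UDP-glycosyltransferases attach sugars to flavonoids, hormones and foreign compounds. Of 28 family members tested, 12 were higher in nia1nia2 and none was higher in noa1-2 by limma, and 16 did not pass, with a median of 0.56. After UGT76E12 came UGT73C1 (9.41, 8.15 and 10.19 against 6.23, 6.05 and 6.08, difference 3.13 ± 0.43), UGT76B1, whose product glycosylates isoleucic acid and salicylic acid (3.01 ± 0.26), and UGT73B4 (2.98 ± 0.33). The others called were UGT84A3 (1.89), UGT73B5 (1.77), UGT87A2 (1.73), UGT73C7 (1.68), UGT76E11 (1.45), UGT78D2, UGT72E2 (1.04) and UGT74D1 (0.93). The lowest difference in the family was that of UGT76C2, -0.32, a gene whose product glycosylates cytokinins. Leaving out any array gave 12 or 13 members higher in nia1nia2. Among glutathione transferases, which also act on foreign compounds, 4 of 8 tested were higher in nia1nia2, led by GSTU25 (1.70 ± 0.20) and GSTU16 (1.34 ± 0.31), and GSTU18 was higher in noa1-2 (-0.68 ± 0.22). The 4 fell to 2 without nia1nia2 replicate 2 or any noa1-2 array, and GSTU18 passed only with all 6 arrays or without nia1nia2 replicate 3.

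**Figure D3:**
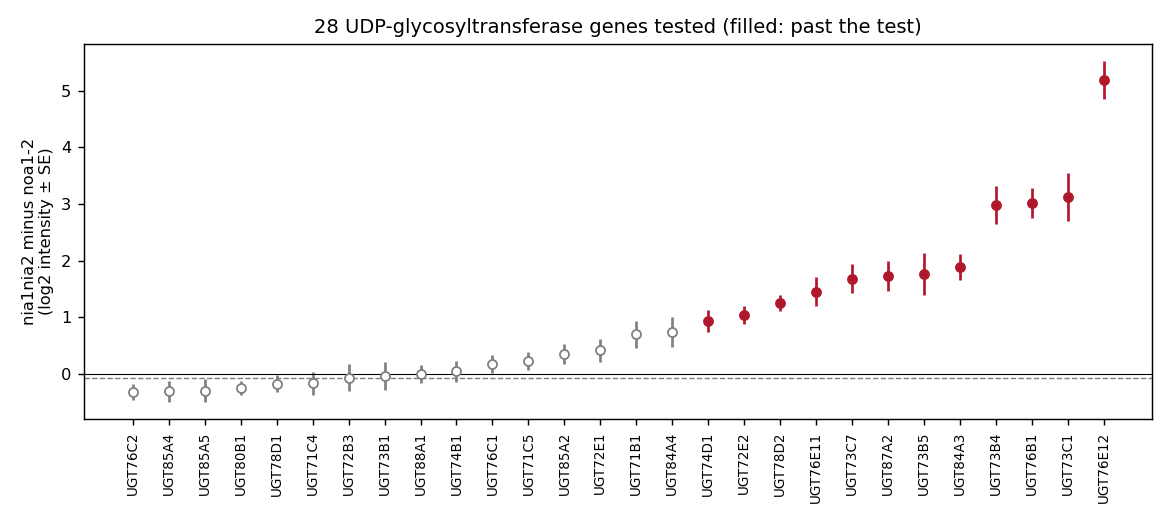
Difference in log2 intensity, nia1nia2 minus noa1-2, of 28 UDP-glycosyltransferase genes, with the SE of limma's fit on 3 arrays per genotype and a dashed line at the median of all genes (-0.08). The 12 filled points passed the test, all above 0, from UGT74D1 (0.93) to UGT76E12 (5.19).

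Transcripts that respond to disturbed mitochondria were also higher in nia1nia2. Of 9 tested members of the mitochondrial stress list (25 listed, 11 named), 6 were higher there and none in noa1-2 by limma, with a median of 1.29. AT2G04050, of the MATE efflux carriers, read 8.00, 7.61 and 9.02 against 5.51, 5.43 and 5.49 (2.73 ± 0.31, adjusted p = 0.000621), but its Col-0 mean was 4.01, under both mutants. NDB2, an external NAD(P)H dehydrogenase of the alternative respiratory chain, read 9.28, 8.64 and 9.50 against 7.30, 7.42 and 7.70 (1.67 ± 0.23, adjusted p = 0.00128). AT2G41730 (2.37 ± 0.36) and AT2G32020 (1.58 ± 0.29) were called as well, as were AT5G51440, a mitochondrial small heat shock protein gene (1.29), and AT5G09570 (0.86). AT2G21640, a marker of oxidative stress, had a difference of -0.13 ± 0.17 (adjusted p = 0.606), and in this gene both mutants lay above Col-0, nia1nia2 by 2.37 ± 0.18 and noa1-2 by 2.49 ± 0.11. Leaving out any array gave 6 or 7 calls on the list.

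Among genes of succinate and isocitrate dehydrogenase and cytochrome c, gathered by symbol after their values were seen, 7 of 8 were higher in nia1nia2. The share of 87.5%, beside 13.0% of all genes, depends on which symbols were picked. These were the cytochrome c genes CYTC-2 (1.12 ± 0.22) and CYTC-1 (0.76), the isocitrate dehydrogenase genes IDH-V (0.96 ± 0.26), IDH-VI (0.55) and ICDH (0.56), and the succinate dehydrogenase genes SDH1-1 (0.89 ± 0.17) and SDH2-1 (0.79 ± 0.20), while SDH2-2 had 0.25. The count fell to 3, 2, 3 and 4 without nia1nia2 replicate 2 and noa1-2 replicates 1, 2 and 3. In a fit that blocked on replicate number, none of these genes was called. Only numbers 2 and 3 occur in both mutants, so the differences in that fit rest on fewer arrays. Of the 6 mitochondrion-encoded genes tested, nad2, a subunit of respiratory complex I, was higher in nia1nia2 (1.49 ± 0.28), and was not tested without nia1nia2 replicate 2 or 3, where its means lay under the floor.

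Of 8 tested enzymes, mostly of amino acid breakdown and gathered by symbol after their values were seen, 7 were higher in nia1nia2. FDH and AAH act on other compounds, and MCCA and MCCB, of leucine breakdown, were placed in a separate group. The share of 87.5%, beside 13.0% of all genes, therefore depends on which genes were picked. MGL, which cleaves methionine, read 10.10, 9.43 and 9.75 against 7.65, 7.32 and 7.13 (2.39 ± 0.21, adjusted p = 0.000218). FDH, which oxidises formate in mitochondria, read 12.95, 12.45 and 13.10 against 10.96, 10.92 and 10.95 (1.89 ± 0.18, adjusted p = 0.000315), a separation of more than a log2 unit between the nearest arrays. The allantoate hydrolase gene AAH (2.01 ± 0.19), which acts in the recovery of nitrogen from purines, ALDH7B4 (1.74 ± 0.22), the asparaginase genes ASPGB1 (1.57) and ASPGA1 (0.44) and DELTA-OAT (1.15), an ornithine aminotransferase, were higher in nia1nia2, and ALDH6B2 did not pass (-0.31). Among 5 genes with MCC and ETF symbols, which act in leucine breakdown and electron transfer in mitochondria and were also gathered after their values were seen, 3 were higher in noa1-2. These were MCCA (-0.79 ± 0.13), MCCB (-0.68 ± 0.15) and ETFQO (-0.81 ± 0.15), of which MCCB did not pass without noa1-2 replicate 1. The others, ETFALPHA (0.35 ± 0.21) and ETFBETA (0.46 ± 0.17), had differences above 0 that did not pass, and 1 gene of the 5 was called higher in nia1nia2 without nia1nia2 replicate 3. Of 9 ATG8 genes tested, whose products coat autophagic membranes, 4 were higher in nia1nia2, 1 was higher in noa1-2 and 4 did not pass, again in a group gathered after values were seen. ATG8G (1.17 ± 0.20), ATG8H (1.13 ± 0.17), ATG8B (1.06 ± 0.15) and APG8A (0.89) were those higher in nia1nia2, and ATG8E was higher in noa1-2, with 6.86, 7.31 and 7.41 against 8.44, 7.92 and 8.22 (-1.0 ± 0.20, adjusted p = 0.00608). ATG8C (0.57), ATG8D (0.43), APG8H (0.30) and ATG8F (-0.10) did not pass.

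Hypoxia genes are of interest because group VII ERFs, which low NO stabilises, activate them. The core hypoxia list divided between the mutants, with 5 of 15 tested members higher in nia1nia2 and 6 higher in noa1-2, and a median of 0.09. On the nia1nia2 side, AT4G39675 read 9.55, 8.96 and 9.73 against 6.75, 6.45 and 7.20 (2.61 ± 0.25, adjusted p = 0.000315), followed by AT5G26200, a mitochondrial carrier family gene (1.40 ± 0.24), AT5G66985 (1.19), AT4G24110 (1.06 ± 0.23) and AT3G03270, a universal stress protein gene (0.46). On the noa1-2 side, AT4G27450 read 6.27, 7.75 and 6.36 against 8.70, 8.85 and 8.51 (-1.89 ± 0.36, adjusted p = 0.00485). It shares the YGL and LRDR motifs of AT3G15450, and it lay below the Col-0 mean of 9.10 in nia1nia2 (-2.30 ± 0.43, adjusted p = 0.00577). AT1G74940 (-1.45 ± 0.31), AT1G03610 (-1.06), AT1G19530 (-1.06), AT5G44730 (-0.77) and AT5G42200 (-0.68) were also higher in noa1-2. PDC2, a pyruvate decarboxylase gene, had a difference of -0.06 that did not pass. The count on the noa1-2 side fell to 3 without noa1-2 replicate 1, and no other array moved either count by over 1.5 times.

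Of 20 genes that the study lists as common to hypoxia, the N-end rule mutant prt6 and nia1nia2noa1-2, 5 were tested and 4 were higher in nia1nia2. The study chose them in part on arrays of the same series, so their direction is not independent evidence. They were AT4G39675, AT4G24110, AT1G65500 (9.62, 10.08 and 10.84 against 8.07, 8.84 and 8.56, difference 1.69 ± 0.31, adjusted p = 0.00451) and the pyruvate kinase gene AT5G56350 (9.85, 9.62 and 9.60 against 8.67, 8.78 and 8.95, difference 0.89 ± 0.15, adjusted p = 0.00263). AT1G65500 lay above Col-0 in both mutants (2.75 ± 0.32 and 1.06 ± 0.22), whereas AT5G56350 lay 0.95 ± 0.15 above Col-0 in nia1nia2 and 0.06 ± 0.11 above it in noa1-2. AT5G20790 overlapped between the mutants (6.27, 7.07 and 6.39 against 6.67, 7.21 and 7.31, difference -0.49 ± 0.25, adjusted p = 0.173), and its Col-0 mean of 5.63 was below both.

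The HHO family of nitrate-responsive repressors had no common direction. AT3G25790 had the difference of 5.14 given above, whereas its relatives AT1G68670 (0.10) and AT1G25550 (-0.33) did not pass and AT4G37180 was higher in noa1-2 (6.17, 6.97 and 6.70 against 7.54, 7.61 and 7.74, difference -1.02 ± 0.21, adjusted p = 0.00683). Of 3 transporters tested from the nitrate transport list, AT2G26690 was higher in nia1nia2 (0.66 ± 0.20), and GTR1 (-0.26) and GTR2 (-0.49) did not pass. The call of AT2G26690 was lost without nia1nia2 replicate 2 or 3 and without any noa1-2 array. None of the 29 genes listed for nitrogen assimilation could be named.

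In the iron deficiency list (28 listed, 6 named), 3 of 4 tested genes were higher in nia1nia2 and 1 in noa1-2. AT1G47400, which encodes a small peptide that promotes iron uptake, read 10.20, 10.03 and 8.95 in nia1nia2 and 6.55, 6.51 and 5.81 in noa1-2 (3.44 ± 0.34, adjusted p = 0.000329). The Col-0 mean of 9.42 was close to nia1nia2 (0.31 ± 0.29, adjusted p = 0.455) and far above noa1-2 (-3.13 ± 0.17, adjusted p = 2.96e-06). PYE, a bHLH regulator of responses to low iron, had a similar order, with 7.12, 6.63 and 6.17 against 5.70, 5.97 and 5.80 (0.82 ± 0.23, adjusted p = 0.0275) and a Col-0 mean of 6.73. AT3G13610, an enzyme of the synthesis of iron-mobilising coumarins, lay above Col-0 in nia1nia2 (1.21 ± 0.25) and below it in noa1-2 (-1.06 ± 0.21), which gave a difference of 2.27 ± 0.21. BGLU42, a glucosidase of coumarin secretion, was higher in noa1-2 (-0.62 ± 0.15). BGLU42 did not pass without noa1-2 replicate 1 or 2, nor PYE without nia1nia2 replicate 2 or 3 or any noa1-2 array.

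Nuclear genes of the plastid gene expression machinery were higher in noa1-2. All 9 tested nuclear genes of plastid ribosomal proteins (38 listed, 9 named) were higher there, by 0.49 to 1.34 log2 units, with a median of -0.88 against -0.08 over all genes. AT4G17560 read 8.60, 9.28 and 8.41 against 10.06, 10.06 and 10.20 (-1.34 ± 0.22, adjusted p = 0.00269), and AT4G01310 (-1.15 ± 0.17), AT1G29070 (-1.06 ± 0.17) and AT1G64510 (-0.89 ± 0.22) followed. The list lay below Col-0 in nia1nia2 (median -0.61) and above it in noa1-2 (median 0.28). The count stayed at 9 when any nia1nia2 array was left out and was 7, 6 and 5 without noa1-2 replicates 1, 2 and 3.

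Factors that edit and splice plastid RNA or assemble photosynthetic complexes had the same direction. By symbol stem, gathered after values were seen, 14 such genes of the CRR, OTP, LPA, CFM and HCF series were tested and all 14 were higher in noa1-2, by 0.70 to 1.90 log2 units. CRR21, an RNA editing factor for a plastid NDH transcript, read 6.67, 6.47 and 6.43 against 8.67, 8.39 and 8.22 (-1.90 ± 0.16, adjusted p = 0.000186). CFM3A, a splicing factor for plastid introns, read 6.88, 7.20 and 6.86 against 9.02, 8.77 and 8.73 (-1.86 ± 0.16, adjusted p = 0.000186). Both genes were below Col-0 in nia1nia2 (-1.04 ± 0.14 and -1.14 ± 0.15) and above it in noa1-2 (0.86 ± 0.12 and 0.72 ± 0.10), with the arrays of each genotype tightly grouped. The editing factor gene OTP81 (-1.59 ± 0.15) stood out for its rise in noa1-2 over Col-0 (1.16 ± 0.12), whereas LPA19, for the assembly of photosystem II (-1.42 ± 0.17), fell in nia1nia2 (-1.44 ± 0.18) and was near Col-0 in noa1-2 (-0.02 ± 0.09).

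The plastid chaperonin genes differed among themselves. Cpn60beta2 read 8.68, 9.96 and 9.01 against 11.42, 11.63 and 11.60 (-2.33 ± 0.29, adjusted p = 0.000938), Cpn60beta4 read 7.49, 7.74 and 7.33 against 8.85, 8.89 and 8.90 (-1.36 ± 0.15, adjusted p = 0.000499), and Cpn60beta3 had a difference of -0.03 that did not pass. These subunits fold newly made plastid proteins. In a wider list drawn up for plastid protein quality control, 3 of 4 tested genes were higher in noa1-2. They were Cpn60beta2, AT1G23100 (-0.69 ± 0.21) and AT1G09130, of the Clp protease (-0.66 ± 0.20). Whether the product of AT1G23100 is in the plastid was not checked. Cpn60beta2 passed whichever array was left out, while the list held 1 call without nia1nia2 replicate 3 or any noa1-2 array and 2 without nia1nia2 replicate 2 or 4.

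Of the 7 chlorophyll synthesis genes tested, 5 were higher in noa1-2 and none in nia1nia2, with a median of -0.90. CHLM, a methyltransferase of the magnesium branch, read 10.63, 10.70 and 10.55 against 11.58, 11.52 and 11.62 (-0.95 ± 0.13, adjusted p = 0.00122), a gap several times the spread within each mutant. CHLI2, of the magnesium chelatase (-1.36 ± 0.19), GSA1, of 5-aminolevulinic acid synthesis (-1.18 ± 0.23), HEME1 (-0.90 ± 0.16) and HEMB1 (-0.77) were called, and PORB (-0.86) and HEMA2 (-0.43) did not pass. The nuclear photosynthesis genes differed less, with 22.2% higher in noa1-2, near the 18.5% of all genes. Of 9, 2 were called, LHCB4.3, an antenna protein gene (7.32, 7.53 and 7.54 against 8.68, 8.87 and 8.82, difference -1.33 ± 0.14), and PSAN of photosystem I (-0.47 ± 0.13), with a list median of -0.33. LHCB4.1 (-0.27) and LHCB4.2 (-0.33) did not pass. Without nia1nia2 replicate 2 or any noa1-2 array, PSAN did not pass either.

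All 69 named genes of the plastid genome were tested. In higher plants a nuclear-encoded polymerase transcribes mainly the genes of the plastid's own polymerase and ribosome, and the plastid-encoded polymerase transcribes mainly photosynthesis genes. Relative to noa1-2, 60 of 69 had a lower mean in nia1nia2, beside 3934 of all 6861 genes, and the median was -0.43. Against Col-0, the median of the 69 genes was 0.15 in nia1nia2 and 0.57 in noa1-2. The test was passed by 21 of 69, all higher in noa1-2, a share of 30.4% beside 18.5% of all genes. For the 29 photosynthesis genes the share was 24.1%, near that of all genes. By function the medians were -1.25 for the RNA polymerase, -0.90 for ribosomal proteins, -0.33 for photosynthesis, -0.36 for the NDH complex and -0.11 for ATP synthase. Group medians against Col-0 ran from -0.13 (NDH complex) to 0.46 (ATP synthase) in nia1nia2. In noa1-2 they ran from 0.31 (NDH complex) to 1.51 (RNA polymerase).

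Of these groups the polymerase genes had the lowest median. RpoC1 read 9.82, 10.89 and 10.36 against 11.78, 11.84 and 11.76 (-1.44 ± 0.24, adjusted p = 0.00317), rpoC2 differed by -1.26 ± 0.30, rpoB by -1.23 ± 0.40 (adjusted p = 0.0464) and rpoA by -0.74, which did not pass. For rpoC1 the nia1nia2 mean equalled that of Col-0 (difference 0.00 ± 0.26), and noa1-2 lay 1.44 ± 0.12 above Col-0 (adjusted p = 3.52e-05). Of 15 ribosomal protein genes, 7 were called, among them rpl22 (11.16, 11.35 and 9.87 against 12.29, 12.29 and 12.03, difference -1.41 ± 0.35) and rps3 (-0.99 ± 0.33), while rpl36 (-1.38 ± 0.50) and rps2 (-1.35 ± 0.46) had like differences but a wider spread and did not pass. Of 29 photosynthesis genes, 7 were called, with psbB (-0.93 ± 0.18), petG (-0.91 ± 0.29), ycf4 (-0.80 ± 0.17) and psbH (-0.79 ± 0.20) in the lead, and psaA (0.43) and psbN (0.66) had differences above 0 that did not pass. None of the 6 ATP synthase genes was called by limma. The calls of rpoC2, rpoB, rps3, petG and psbH were lost without nia1nia2 replicate 2, and of those named here rpoC1, psbB and ycf4 were kept whichever array was left out.

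The plastid count changed when an array was left out, and it fell whichever noa1-2 array was missing. It was 9 without nia1nia2 replicate 2, 35 without nia1nia2 replicate 4, and 4, 7 and 11 without noa1-2 replicates 1, 2 and 3. The cDNA was primed with oligo(dT), and plastid transcripts mostly lack stable poly(A) tails, and the part of priming in these values was not tested.

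**Figure D4:**
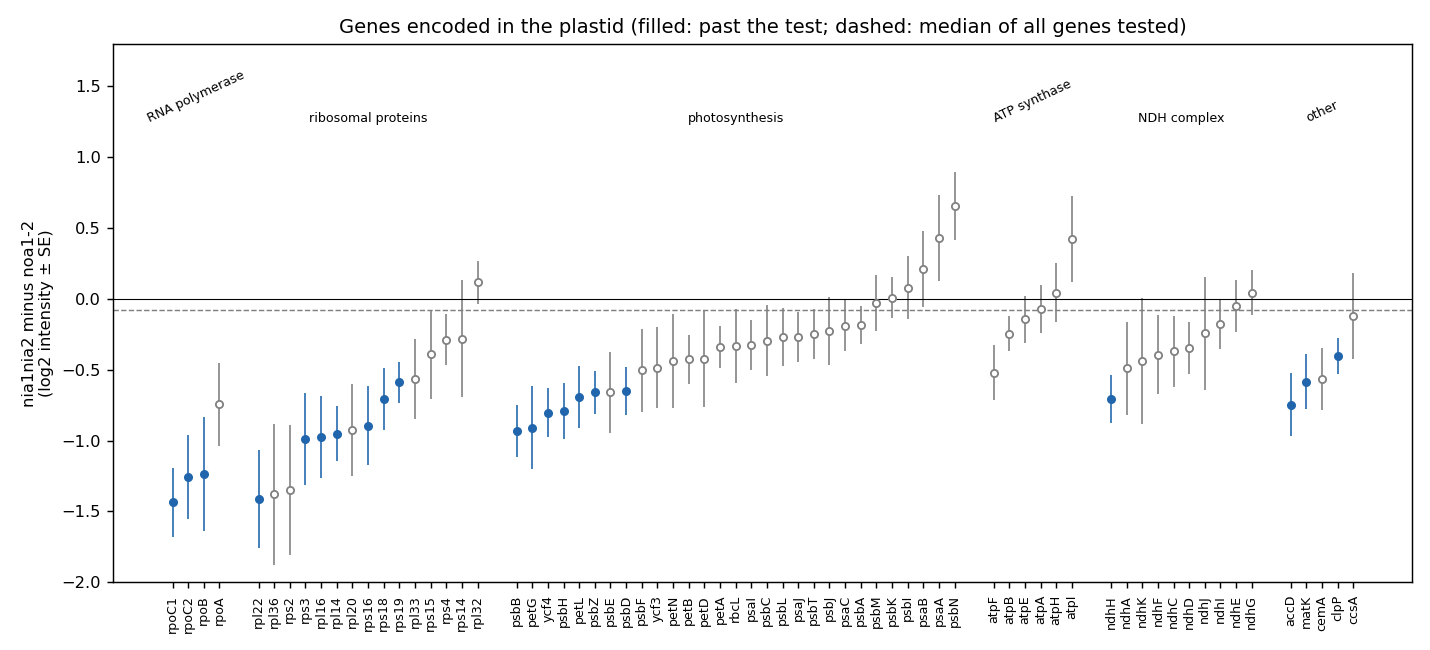
Difference in log2 intensity, nia1nia2 minus noa1-2, with SE, of 69 plastid-encoded genes grouped by function, with a dashed line at the median of all genes (-0.08). Filled points are the 21 genes that passed the test, all below 0, and the group medians fall from ATP synthase (-0.11) to the RNA polymerase (-1.25).

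Jasmonate-responsive defence genes were higher in noa1-2. All 3 tested members of the jasmonate list (30 listed, 4 named) were called, PDF1.2b, PDF1.2 and AT1G52000, with a median of -1.86. PDF1.2b, a defensin gene, read 5.39, 6.67 and 5.40 against 8.31, 8.03 and 8.30 (-2.39 ± 0.32, adjusted p = 0.0012), and PDF1.2 read 4.60, 5.51 and 4.94 against 7.15, 6.76 and 6.71 (-1.86 ± 0.24, adjusted p = 0.001). PDF1.2 and PDF1.2b are close copies, so their probe sets may share signal. AT1G52000, a jacalin lectin gene, read 6.95, 7.72 and 6.10 against 8.66, 8.43 and 8.43 (-1.58 ± 0.35, adjusted p = 0.0097), and its noa1-2 difference from Col-0 (-0.18 ± 0.14) did not pass. PDF1.2b lay above Col-0 in noa1-2 (1.20 ± 0.11) and below it in nia1nia2 (-1.19 ± 0.32). Outside the list, ORA47, an ERF that activates jasmonate synthesis genes, read 5.48, 7.58 and 6.63 against 9.46, 9.13 and 8.27 (-2.39 ± 0.50, adjusted p = 0.00761). The thionin gene THI2.2 (-1.64 ± 0.18) and the defensin gene PDF1.4 (-1.34 ± 0.19) were also higher in noa1-2. They belong to 7 defensin and thionin genes gathered after values were seen, of which 6 were higher in noa1-2 and 1, PDF2.1, in nia1nia2 (0.97), a count of 1 that became 0 without nia1nia2 replicate 2 or 4 or noa1-2 replicate 2 or 3. In the salicylic acid and defence list, AT5G03350 and RING1 (1.90 ± 0.26) were higher in nia1nia2, and AT1G66100, a thionin gene, did not pass (-1.07).

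Of 5 genes tested for abscisic acid and cold protection, 3 were higher in nia1nia2, the dehydrin gene LTI30 (2.11 ± 0.30), LEA4-5 (1.84 ± 0.32) and COR15A (0.90 ± 0.22). COR15B (-0.43) did not pass, although its product resembles that of COR15A. Of 4 cytosolic heat shock genes, 2 were higher in nia1nia2, AT2G29500, for a small heat shock protein (1.19 ± 0.28), and AT2G20560, a DnaJ protein gene (0.79 ± 0.18). Neither of these passed without noa1-2 replicate 2, and 1 of them passed without noa1-2 replicate 1 or 3. COR15A did not pass without nia1nia2 replicate 2 or noa1-2 replicate 2 or 3.

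Of 6 sugar and starch genes tested, 2 were higher in nia1nia2, 3 were higher in noa1-2 and 1 did not pass. APL3 and APL4, large subunits of ADP-glucose pyrophosphorylase that respond to sugar, were higher in nia1nia2. APL3 read 9.07, 7.83 and 8.09 against 5.93, 5.58 and 5.47 (2.67 ± 0.30, adjusted p = 0.000589), and APL4 differed by 2.58 ± 0.36. ATSPS4F, a sucrose phosphate synthase gene (-1.48 ± 0.23), QQS, which affects starch content (-1.44 ± 0.29), and DPE1, an enzyme of starch breakdown (-0.70), were higher in noa1-2. QQS was listed at 8.27 in nia1nia2noa1-2, above its Col-0 mean of 6.16 and above both mutants.

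Among SWEET sugar transporters, SWEET13 (8.78, 8.47 and 7.99 against 5.65, 5.56 and 5.27, difference 2.92 ± 0.21, adjusted p = 0.000128) and SWEET4 (2.70 ± 0.35) were higher in nia1nia2. SWEET16, a carrier of the vacuolar membrane, was higher in noa1-2 (-1.47 ± 0.23), and SWEET1 (0.47), SWEET11 (0.07) and SWEET17 (0.48) did not pass. SWEET13 lay above Col-0 in nia1nia2 (1.14 ± 0.23) and below it in noa1-2 (-1.78 ± 0.15).

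Cell division genes were also compared. The mitotic kinase genes AUR1 (6.65, 7.12 and 7.01 against 7.75, 8.05 and 8.10, difference -1.04 ± 0.17, adjusted p = 0.00291) and AUR2 (-1.09 ± 0.27) and the replication licensing gene PRL (-0.49 ± 0.14) made up 3 calls of 4 tested, and ICU2, a DNA polymerase gene, did not pass (-0.34). Only 1 of these calls stood without nia1nia2 replicate 2 and without noa1-2 replicate 2 or 3. Of 13 TBL genes tested, 8 did not pass. The 15.4% higher in nia1nia2 and 23.1% higher in noa1-2 lay near the shares of all genes (13.0% and 18.5%). TBL37 (10.85, 10.48 and 11.25 against 7.75, 7.97 and 8.01, difference 2.95 ± 0.20) and TBL38 (2.67 ± 0.26), of a family that acetylates wall polymers, were higher in nia1nia2, and TBL45 (-0.92 ± 0.21), TBL25 (-0.87 ± 0.24) and TBL41 (-0.65) were higher in noa1-2. XTH18 (1.00 ± 0.33, adjusted p = 0.0497) and XTH16 (-1.29 ± 0.33), which remodel xyloglucan, were called in opposite directions. Without noa1-2 replicate 2 or 3, none of the 3 TBL genes higher in noa1-2 passed, and 1 did without noa1-2 replicate 1. XTH18 did not pass without nia1nia2 replicate 2 or any noa1-2 array, nor XTH16 without noa1-2 replicate 1 or 3. EXPA8, an expansin gene, read 7.18, 9.11 and 5.95 in nia1nia2 against 9.10, 9.15 and 9.47 in noa1-2, so its arrays overlapped and its difference of -1.83 ± 0.65 did not pass (adjusted p = 0.0614).

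Other families were counted in the same way. Of 9 beta-glucosidases tested, 4 were higher in noa1-2, led by BGLU46 (-1.22 ± 0.19) and BGLU44 (-0.80 ± 0.15), and of 9 cytochrome P450 genes 2 were higher in each mutant, CYP71B26 (0.91 ± 0.16) and CYP71B6 (0.67 ± 0.20) in nia1nia2, CYP71B29 (-0.81 ± 0.16) and CYP71B5 (-0.71 ± 0.14) in noa1-2. The P450 share of 22.2% in each direction lay near the 13.0% and 18.5% of all genes. WRKY6 was the WRKY gene called of 3 tested (1.37 ± 0.16), and the auxin-conjugating GH3.17 was higher in nia1nia2 (0.80 ± 0.21). ATPMEPCRB, a pectin methylesterase gene, was higher in noa1-2 (-0.88 ± 0.27). CYP71B6 passed only with all 6 arrays or without nia1nia2 replicate 3, ATPMEPCRB only with all 6 or without nia1nia2 replicate 4, and GH3.17 did not pass without noa1-2 replicate 1 or 2. The 4 beta-glucosidases became 2 without noa1-2 replicate 1 or 2. The clock genes GI (-0.32 ± 0.16) and TIC (-0.01 ± 0.27), the glucosinolate genes BCAT4 (0.28) and AT2G31790 (-0.20), the sulfur genes BGLU28 (0.43) and AT1G04770 (-0.29), the glutaredoxin genes GRXC1 (0.34) and GRXC2 (0.46) and NAC014 (0.06) did not pass.

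**Figure D5:**
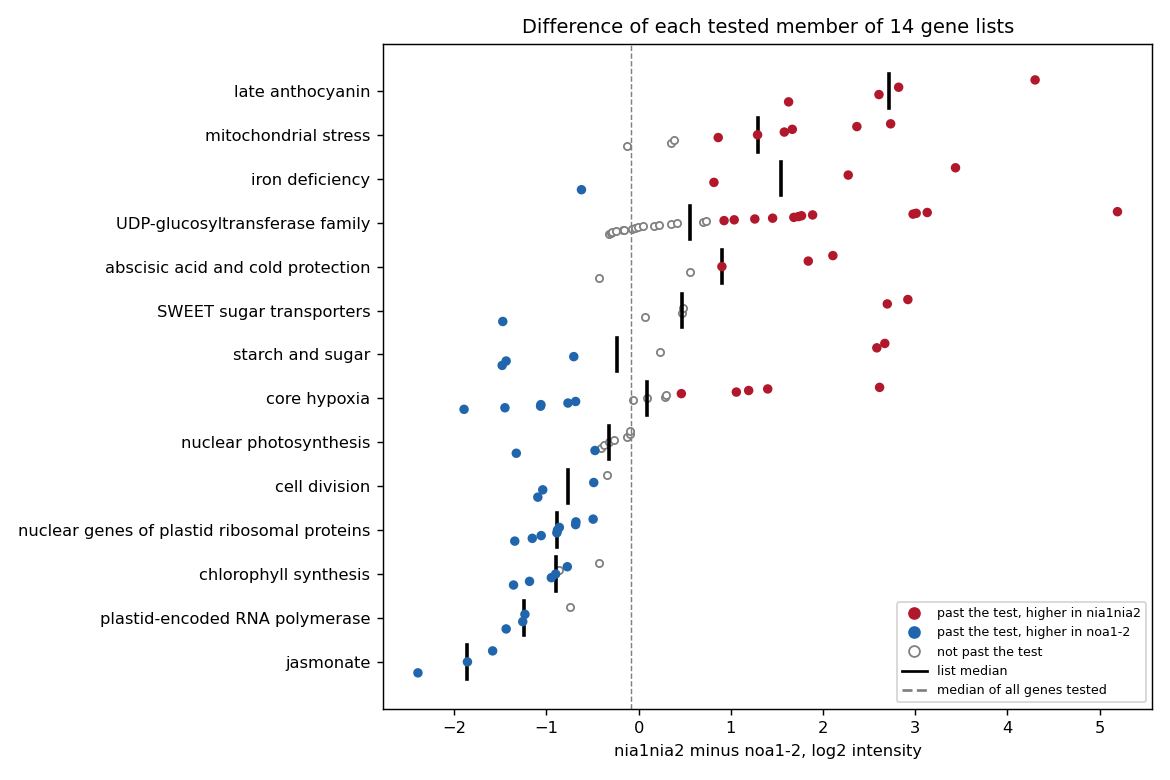
Difference in log2 intensity, nia1nia2 minus noa1-2, of each tested member of 14 gene lists, with a black bar at each list's median and a dashed line at the median of all genes (-0.08). Filled red and blue points passed the test in favour of nia1nia2 and noa1-2, and the list medians range from 2.71 for late anthocyanin genes to -1.86 for jasmonate genes.

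Each mutant was also set beside Col-0. In fits of their own, 782 genes were higher in nia1nia2 than in Col-0 (11.4%) and 1227 lower (17.8%), whereas noa1-2 exceeded Col-0 for 855 (12.6%) and lay below it for 824 (12.1%). Both comparisons share the Col-0 arrays. The genes counted next were chosen by the size of the difference between the mutants, which itself makes a Col-0 mean between them more likely, so the shares are a description of these genes only. Among the 390 genes at least 2-fold higher in nia1nia2, the Col-0 mean lay between the means of the mutants for 280 (71.8%), and among the 387 at least 2-fold higher in noa1-2 for 285 (73.6%). The mutant farther from Col-0 was nia1nia2 for 354 and 311 of these genes (90.8% and 80.4%). The median distances from Col-0 were 1.31 in nia1nia2 and -0.20 in noa1-2 for the first group and -1.0 and 0.31 for the second. The nia1nia2noa1-2 mean was closer to nia1nia2 than to noa1-2 for 308 of the 390 genes (79.0%) and for 227 of the 387 (58.7%). Over all genes tested, the Col-0 mean lay between the mutants for 42.7%, and nia1nia2 was farther from Col-0 for 68.7%. The nia1nia2noa1-2 mean was closer to nia1nia2 for 49.7% of all genes tested. These are counts of means, with no test, and nia1nia2 means carry the larger error.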

How the data were processed

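Whole-seedling RNA of 12 arrays was hybridised to Affymetrix ATH1 arrays, and replicates 2, 3 and 4 of nia1nia2 and 1, 2 and 3 of noa1-2 were compared. Per the study's methods the authors ran RMA in R with affy and a custom chip definition, and the deposited values are linear intensities. The submitters' processing notes name limma. The values keep Affymetrix probe set names, and which chip definition lies behind them was not settled. Each deposited intensity was turned into log2, and every log2 value has 2 decimals. Arrays carry no read depth, so the number of arrays limits the precision. No more than 3.98% of probe sets other than controls had equal values on any pair of arrays of a genotype, so all arrays were kept as separate samples.

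Of 22810 probe sets, 64 were controls, 13513 had 1 gene symbol, 503 had several and 8730 had none. Names came from the platform annotation, and 13436 of the 13513 matched RefSeq TAIR10.1 by Entrez gene ID. Of 147 genes with several probe sets the brightest was used. The test was limma 3.58.1 in R 4.3.3 (lmFit, eBayes) on the 6 arrays of the comparison, with Benjamini-Hochberg adjustment at 0.05 over the 6861 genes averaging 6 or more (log2 intensity) in either mutant. Each mutant was compared with Col-0 in a fit of its own 6 arrays, so these 2 comparisons share the Col-0 arrays. The fit was tested on simulated data. Tables were handled in Python 3.11.15 with pandas 2.3.3 and numpy 2.4.6, and plots drawn with matplotlib 3.10.9.

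Members, gene lists and tests were chosen with earlier results of these data known. Named genes were the 20 largest called differences in each direction whose arrays did not overlap, at most 4 called genes from any list or family (or at most 2 tested ones if none was called), and genes the study names. Further list members were named to account for a list, after their values were seen, as were the groups said to be gathered by symbol. Alternatives were all 12 arrays in 1 fit, other floors, scalings and handling of probe sets, array weights, an intensity trend, a replicate block, the methods' t-test and leaving out each array.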

Additional observations from a re-analysis of the deposited data

Results flagged for a closer look

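For 10 genes the mutants moved in opposite directions from Col-0, each past limma's test. A call in the direct comparison of the mutants was a condition of the choice, so that call adds no support. These 10 have the largest smaller change among the genes that met the conditions. For each gene the changes from Col-0 of nia1nia2, noa1-2 and nia1nia2noa1-2 follow the difference between nia1nia2 and noa1-2, all in log2 intensity over 3 arrays per genotype.

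Above Col-0 in nia1nia2 and below it in noa1-2 were 6 genes. AT1G57590, of the pectin acetylesterases, differed by 2.77 ± 0.32 (adjusted p = 0.000671), with 1.44 in nia1nia2, -1.33 in noa1-2 and 0.56 in nia1nia2noa1-2. AT3G22240 differed by 3.20 ± 0.18 (adjusted p = 4.95e-05), with 1.21 in nia1nia2, -1.99 in noa1-2 and 0.35 in nia1nia2noa1-2. SWEET13, a sucrose transporter gene, differed by 2.92 ± 0.21 (adjusted p = 0.000128), with 1.14 in nia1nia2, -1.78 in noa1-2 and 0.40 in nia1nia2noa1-2. DFR, of anthocyanin synthesis, differed by 4.30 ± 0.23 (adjusted p = 4.95e-05), with 3.21 in nia1nia2, -1.09 in noa1-2 and 2.40 in nia1nia2noa1-2. The Col-0 arrays of DFR (6.86, 8.45 and 8.39) overlapped its noa1-2 arrays. AT1G80130 differed by 3.46 ± 0.24 (adjusted p = 0.000117), with 2.38 in nia1nia2, -1.08 in noa1-2 and 1.13 in nia1nia2noa1-2. AT3G13610, of coumarin synthesis, differed by 2.27 ± 0.21 (adjusted p = 0.00029), with 1.21 in nia1nia2, -1.06 in noa1-2 and 0.52 in nia1nia2noa1-2. The nia1nia2noa1-2 mean was above Col-0 for every one of these.

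Below Col-0 in nia1nia2 and above it in noa1-2 were 4 genes. PDF1.2b, a defensin gene, differed by -2.39 ± 0.32 (adjusted p = 0.0012), with -1.19 in nia1nia2, 1.20 in noa1-2 and -1.56 in nia1nia2noa1-2. Cpn60beta2, a plastid chaperonin gene, differed by -2.33 ± 0.29 (adjusted p = 0.000938), with -1.04 in nia1nia2, 1.29 in noa1-2 and 0.17 in nia1nia2noa1-2. AT3G51870, a mitochondrial carrier family gene, differed by -2.08 ± 0.26 (adjusted p = 0.000987), with -1.05 in nia1nia2, 1.04 in noa1-2 and -0.04 in nia1nia2noa1-2. AT2G20670 differed by -3.21 ± 0.74 (adjusted p = 0.0122), with -2.24 in nia1nia2, 0.96 in noa1-2 and -0.21 in nia1nia2noa1-2. Its nia1nia2 replicate 3 (8.29) lay among the Col-0 arrays (8.53, 8.21 and 8.69).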

How the results depend on the processing

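Of the 170 genes named by rule, 156 were called, and none of these changed direction under an alternative that gave it a value, while 87 of them kept their call in every such alternative. Genes that were not called could change sign, as TIC (-0.01) did at 0.34 without nia1nia2 replicate 4 and NAC014 (0.06) at -0.06 without nia1nia2 replicate 3. Other genes in the text were followed only through the counts of their lists. Against 892 genes higher in nia1nia2 and 1267 higher in noa1-2, a 2-fold minimum gave 390 and 387, all probe sets other than controls gave 1841 and 2399, and the methods' t-test gave 1057 and 1509 unadjusted and 495 and 676 after Benjamini-Hochberg adjustment. Leaving out 1 array gave 509 to 1049 and 644 to 1759, with 2 arrays left in that genotype. All 12 arrays in 1 fit gave 1214 and 1801. Median centring gave 996 and 1145, so that 46.5% rather than 41.3% of calls were higher in nia1nia2. The mutants share replicate numbers 2 and 3, and these same-numbered arrays had correlations of deviations of -0.059 and 0.169, the second the highest of all 9 pairs. With 2 such pairs, 1 of them below 0, and no label for what a number shares, the numbers were not taken to pair samples. A fit with the replicate block gave 604 and 873. Numbers 1 and 4 occur in 1 mutant each, so its differences rest on the arrays numbered 2 and 3. A call lost under it can therefore not be read as an effect of pairing. Under it, none of the 7 calls of succinate and isocitrate dehydrogenase and cytochrome c genes passed. Of the 6 core hypoxia genes higher in noa1-2, 2 passed.

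The main limits are 3 arrays per genotype, a spread in nia1nia2 above that of the other genotypes, and an annotation that names 13355 genes and leaves out the mutated ones. The labels call the replicates biological without saying how seedlings were grouped, so p-values measure the spread between these samples. Of the 390 and 387 genes at least 2-fold apart, 109 and 83 lay under a log2 intensity of 6 in the lower mutant, where their differences are less certain in size.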
